A study of Homo sapiens with 8 samples.

Results

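The genes described here are a list of 31 human DNA replication and S-phase genes, taken by name, out of 24630 genes and unnamed transcripts in the count tables. The list holds the MCM2 to MCM7 helicase subunits, loading and activation factors (ORC1, CDC6, CDT1, MCM10, CDC45, GINS1, GINS2, GINS3), polymerase and primase subunits, the clamp PCNA with its loaders, FEN1, LIG1, UNG, enzymes of nucleotide supply, and the transcription factors E2F1 and E2F2. They were measured in 8 samples of 2 human lung adenocarcinoma lines. PC9 is known for an activating mutation of EGFR and for its sensitivity to gefitinib, which inhibits the EGFR kinase. PC9R was selected from PC9 by gefitinib treatment lasting 1 to 2 weeks, and cells of both lines were grown in DMEM and used at passages 8 to 12. Whether PC9R is a clone or a mixed population, and whether the drug was present at harvest, is not stated in the labels. Each line had 2 RNA-seq libraries, 1 library of DNase hypersensitive sites (DHS, stretches of open chromatin) and 1 chromatin immunoprecipitation library for dimethylated lysine 4 of histone H3 (H3K4me2, a mark found beside active promoters and at enhancers).

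DNA replication begins when ORC, CDC6 and CDT1 load the MCM helicase onto origins in G1. At entry into S phase, MCM10, CDC45 and the GINS complex turn the loaded helicase into an active one. Primase and polymerase alpha start each strand, the RFC complex loads PCNA, polymerases delta and epsilon extend, and FEN1 and LIG1 join the lagging-strand fragments. Many of these genes are transcribed at the border of G1 and S by E2F factors, which are held inactive by the retinoblastoma protein until cyclin-dependent kinases phosphorylate it. The RNA of a replication gene in a bulk culture therefore depends both on the share of cells in S phase and on the RNA per cell, and these cannot be told apart here.

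The promoters of the list often held the exact DNA letters that E2F factors are known to bind. A search for TTTGGCGC or TTTCGCGC on either strand, from 250 bases before to 50 bases after the main transcription start site (TSS), found a match in 11 of 31 genes (35.5%), against 299 of 19529 coding genes (1.53%). A match is a string of letters and not a measured binding site. The 28-base windows around the matches are shown because this is the sequence feature by which the list differed most in share from coding genes among the motifs searched. Each is written 5′ to 3′ on the strand of the gene, from GRCh37, with the matched letters in capitals. In MCM2, MCM5 and at both MCM6 sites the capitals run over 12 bases, since a match on one strand overlaps a match on the other. MCM6 was the gene of the list with 2 separate sites.
MCM2 (chr3:127317248-127317275, plus strand): gaaccactTTTCGCGCGAAAcctggttg
MCM3 (chr6:52149527-52149554, minus strand): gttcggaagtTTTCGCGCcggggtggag
MCM5 (chr22:35795926-35795953, plus strand): gccagaagTTTCGCGCCAAAttgttccg
MCM6 upstream site (chr2:136634146-136634173, minus strand): gctttgcaTTTGGCGCGAAAtccctttc
MCM6 downstream site (chr2:136634084-136634111, minus strand): tggtcaggTTTGGCGCGAAAtctccagc
MCM7 (chr7:99699012-99699039, minus strand): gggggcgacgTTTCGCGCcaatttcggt
CDC6 (chr17:38444128-38444155, plus strand): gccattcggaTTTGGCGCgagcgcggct
GINS1 (chr20:25388304-25388331, plus strand): gctttgttcgGCGCCAAAgcgcggagcg
E2F1 (chr20:32274194-32274221, minus strand): gcaaaaaggaTTTGGCGCgtaaaagtgg
E2F2 (chr1:23857750-23857777, minus strand): cggcacgacgTTTGGCGCtaaaaaaaaa
POLA1 (chrX:24711888-24711915, plus strand): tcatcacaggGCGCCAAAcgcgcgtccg
POLE (chr12:133263929-133263956, minus strand): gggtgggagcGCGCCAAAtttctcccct

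The matches lay close to the start site in most of these genes. In E2F1 the match ran from 20 to 13 bases before the TSS, in POLE from 18 to 11, in MCM7 from 9 to 2 and in E2F2 from 42 to 35 bases before it. The MCM3 match spanned the start site, and those of CDC6, GINS1 and MCM2 lay within 15 bases after it. The matches of MCM5, MCM6 and POLA1 began 199, 152 and 137 bases before the TSS. Of 57 other replication genes, 7 (12.3%) had a match. Other promoter motifs were less unevenly spread: CCAAT was found in 20 of 31 genes (64.5%, 36% of coding genes) and the GC box GGGCGG in 22 (71%, 61.8% of coding genes). The cell-cycle element TTTGAA was found in 1 (3.23%, 11.4% of coding genes), all on either strand of the same 300 bases. Of coding genes tested for expression, 35.8% held CCAAT, 74.4% the GC box and 8.91% TTTGAA. Against those genes the GC box was slightly less frequent in the list.

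RNA counts were deposited per RefSeq transcript accession and were summed per gene. Totals were 32515891 and 16013058 in the first and second PC9 library, and 32502455 and 16715426 in the first and second PC9R library, so the second libraries were sequenced to about the same lower depth in both lines. First and second follow the sample titles, where the second library of a line carries an added ending; no label ties them to separate cultures, so p-values here rest on a spread between libraries that may be purely technical. Genes with several accessions held only 6.736% to 7.067% of all counts, so a low value of such a gene was not read as low expression. Of the 31 genes, 15 had 1 accession and 16 had several. The epithelial markers EPCAM, KRT8, KRT18, KRT19 and CDH1 were counted in every library at 36.6 CPM (each count scaled to library size, normalised by the trimmed mean of M-values, TMM) or more. The lung adenocarcinoma markers NKX2-1, NAPSA and SFTPB were at or near 0, with at most 2.02 CPM. Of markers of other cell types, the leukocyte genes PTPRC, CD3E and CD14 were at or below 0.313 CPM, and the fibroblast genes COL1A2 and DCN at or below 0.0854. NKX2-1, SFTPB, PTPRC, CD14 and DCN have several accessions, so their low values fall under the limit given above. COL1A1 (fibroblast) had 24.1 and 6.01 CPM in the first and second PC9 library and 64.2 and 13.7 in those of PC9R. CDH5 (endothelial) had 15.6 and 8.81 CPM in PC9 and 35.8 and 13.3 in PC9R. PECAM1 (endothelial) had 5.17 and 3.60 CPM in PC9 and 9.71 and 6.48 in PC9R, and VWF at most 1.60. COL1A1, CDH5 and PECAM1 were thus higher in PC9R in both pairs, and their part in the values below was not tested.

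Between PC9R and PC9, 26 of the 31 genes had enough counts to be tested and none passed. ORC1, the largest subunit of the origin recognition complex, and RFC2, a clamp loader subunit, were listed at 0 counts in all 4 libraries, each with several accessions. MCM2, CDC45 and GINS3 had at most 16, 7 and 8 counts in a library and were not tested. With edgeR's quasi-likelihood test, 0 of 26 genes were called at an adjusted p under 0.05, and 0 had an unadjusted p under 0.05. Of all 12660 genes tested, 32 (0.253%) were called, 24 higher (0.19%) and 8 lower (0.0632%) in PC9R, and 921 (7.27%) had an unadjusted p under 0.05, 330 of them lower (2.61%). With the library number as a term in the model, 2631 genes (20.8%) were called, and again 0 of 26. At an unadjusted p under 0.05 in that fit, 4 of 26 were lower and 1 was higher, against 17.6% and 18.5% of all genes tested. The smallest adjusted p of the list in that edgeR fit was 0.0564, for TYMS. DESeq2 and limma-voom also called 0 of 26, with 0 at an unadjusted p under 0.05. The median fitted log2 fold change (PC9R over PC9) was −0.14 over the 26 genes and −0.01 over all genes tested, with 7 of the 26 above 0 and 19 below. It was −0.82 without the second PC9R library, −0.22 without the second PC9 library, 0.05 without the first PC9 library and 0.08 without the first PC9R library.

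The values behind this result differed in direction between the first and the second libraries. In the first libraries 25 of 26 genes were lower in PC9R than in PC9 (51.4% of all genes tested were), and in the second libraries 19 of 26 were higher in PC9R (50.5% of all genes tested). Both held for 18 of 26 genes (14% of all genes tested), a count defined after the values were seen, and the reverse order held for 0 (12.1%). The summed CPM of the 26 genes was 3090 and 3473 in the first and second PC9 library, and 1980 and 4715 in the first and second PC9R library. The PC9R libraries were thus the lowest and the highest of the 4, and the PC9 libraries lay between them.

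The log2 ratio of PC9R to PC9 (of CPM plus 0.5) had a median of −0.71 over the 26 genes in the first libraries and 0.23 in the second, where the medians of all genes were −0.02 and 0.01. From the first to the second libraries this log2 ratio rose by a median of 1.06 over the 26 genes (all genes 0.01). Among the 15 genes with 1 accession, 15 were lower in the first libraries, 14 were higher in the second, and the shift was between 0.61 and 1.51. TYMS was the exception in the second libraries. At least 1.5-fold lower values in PC9R were seen for 15 of 26 genes in the first libraries (19.4% of all genes), and at least 1.5-fold higher values for 7 of 26 in the second (18.5%). The first PC9R library was the lowest and the second the highest of all 4 for 10 of 26 genes (5.64% of all genes). These shares describe 4 libraries, and with 1 library of each line per pair the shift itself was not tested.

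**Figure D1:**
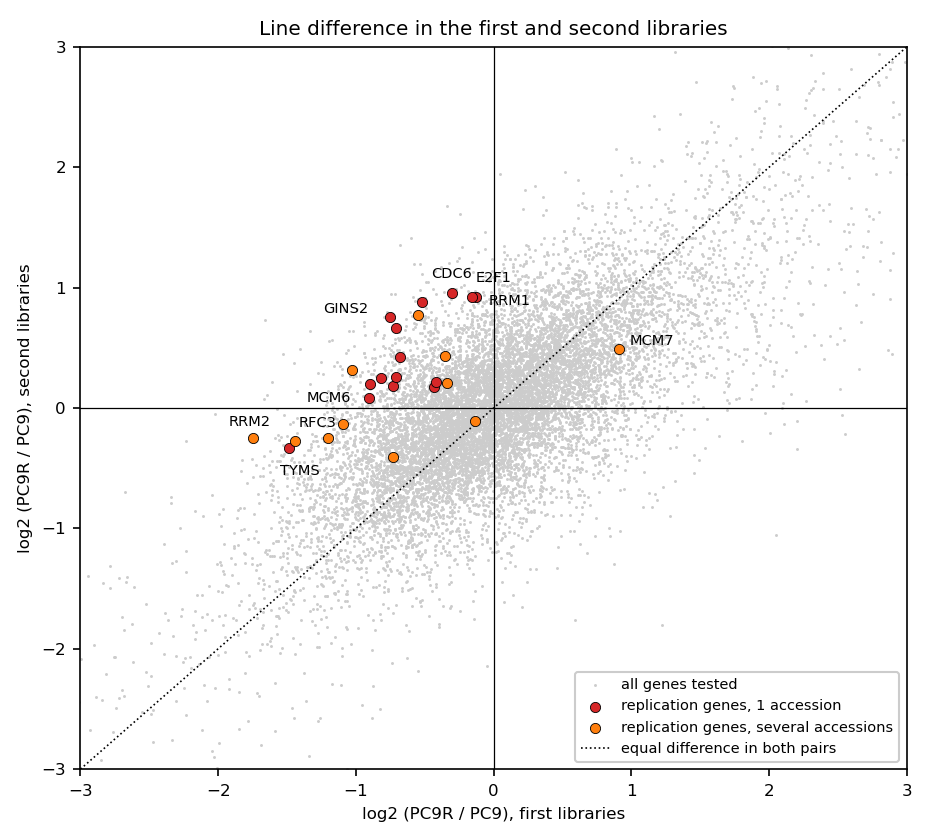
The horizontal axis gives the log2 ratio of PC9R to PC9 in the first libraries and the vertical axis the same ratio in the second, for all 12660 genes tested (grey; 180 lie outside the axes) and the 26 replication genes (red, 1 accession; orange, several). The replication genes lie above the dotted line of equal difference except MCM7, and 18 of 26 fall in the upper left section, lower in PC9R in the first libraries and higher in the second.

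Counting intervals were computed for each pair. The exact 95% interval of the PC9R to PC9 ratio, which covers counting error only, lay below 1 in the first libraries for 22 of 26 genes, above 1 for 1 and included 1 for 3. Over all genes tested it lay below 1 for 38.2% and above 1 for 35.5%. In the second libraries it lay above 1 for 15 of 26, below 1 for 2 and included 1 for 9, against 29.8% above and 30.1% below over all genes tested. For MCM5 the ratio was 0.611 (0.593 to 0.629) in the first libraries and 1.59 (1.51 to 1.66) in the second.

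The first step of replication, helicase loading, was represented by CDC6 and CDT1. CDC6, the ATPase that recruits the helicase with ORC, had 130.1 and 249.99 CPM in PC9 and 105.5 and 486 CPM in PC9R, in the order first and second library, which is kept below. Its 2 PC9R values enclosed both PC9 values, with log2 ratios of −0.30 and 0.96. CDT1, which brings MCM2 to MCM7 to the origin and is degraded in S phase, had 237 and 70.1 CPM in PC9 and 166 and 129.9 CPM in PC9R. Both lines had less CDT1 in the second library, but PC9R less so, and the log2 ratios were −0.52 and 0.88.

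The helicase subunits were measured well for MCM5 and MCM6, which have 1 accession each. MCM5 had 357 and 173 CPM in PC9 and 218 and 274 CPM in PC9R. The PC9R values lay between the PC9 values, and the order of the lines turned from the first to the second libraries. MCM6 had 403 and 721 CPM in PC9 and 215 and 765 CPM in PC9R, log2 ratios of −0.90 and 0.09, so that its difference was found in the first libraries and was small in the second.

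The other helicase subunits have several accessions, and their values compare only the reads counted. MCM3 had 26.1 and 27.2 CPM in PC9 and 11.9 and 24.8 CPM in PC9R, which was lower in both pairs. MCM4 had 4.42 and 0.667 CPM in PC9 and 1.91 and 0.951 CPM in PC9R. MCM7 differed in direction from the other 25 genes in the first libraries, with 1.16 and 1.00 CPM in PC9 and 2.62 and 1.61 CPM in PC9R, higher in PC9R in both pairs (36.6% of all genes were). The MCM7 values rest on 15 to 92 counts, 392 of its 4960 exon bases overlap AP4M1 on the opposite strand, and the labels do not state whether counting used strand. The fitted log2 fold change of MCM7 was 0.97 (SE 0.68, adjusted p = 0.992, edgeR).

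GINS1 and GINS2, subunits of the complex that joins CDC45 and the MCM ring, both rank PC9R lowest in the first and highest in the second library. GINS1 had 61.9 and 157 CPM in PC9 and 45.6 and 177 CPM in PC9R. GINS2 had 68.0 and 86.9 CPM in PC9 and 40.2 and 147 CPM in PC9R. The GINS2 shift, from a log2 ratio of −0.75 to one of 0.75, was the largest of the list at 1.51. MCM10, the factor that helps activate the helicase, rests on 5 to 13 counts a library and its interval included 1 in both pairs.

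**Figure D2:**
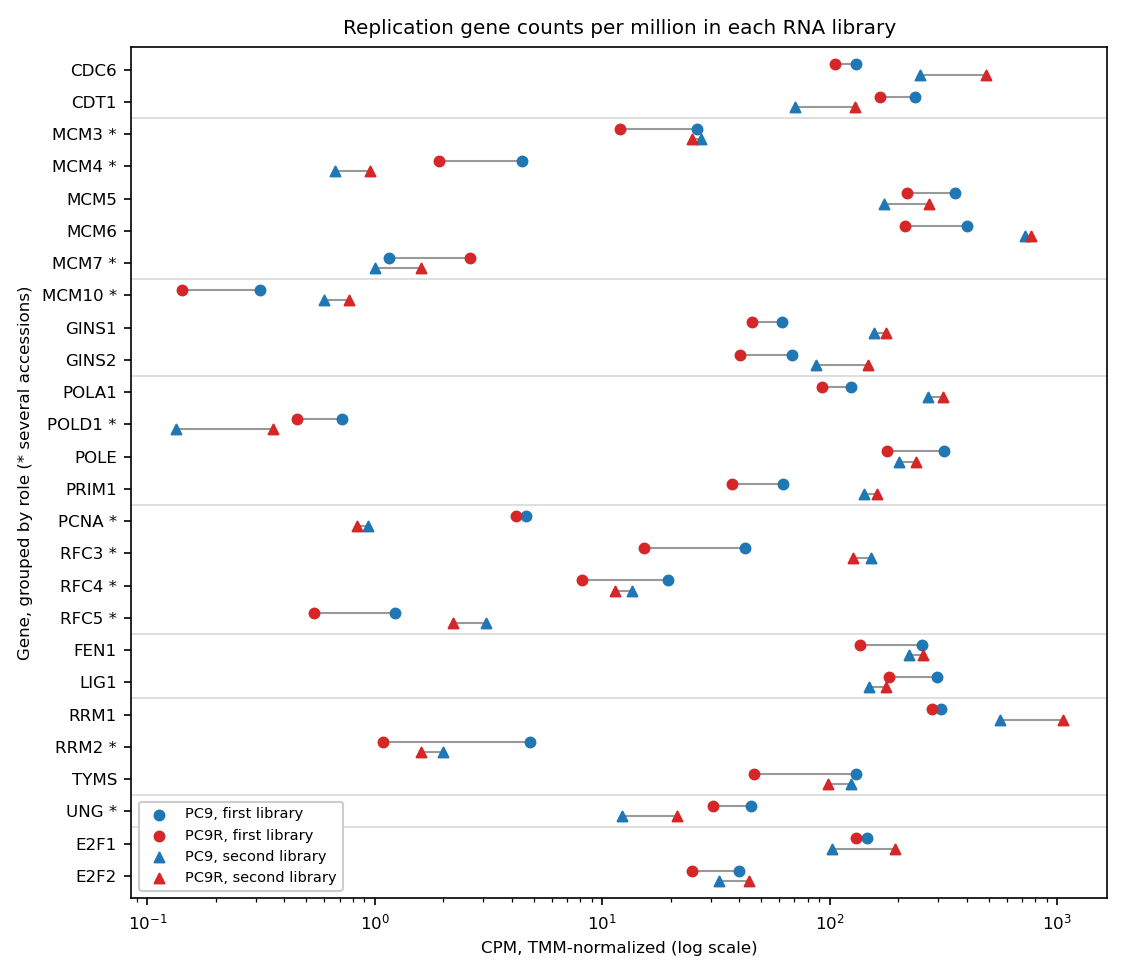
CPM (TMM-normalised, log axis) of the 26 tested replication genes in each of the 4 RNA libraries, grouped by role; circles are first and triangles second libraries, blue is PC9 and red PC9R, and grey lines join the 2 lines within a pair. Red circles lie left of blue circles for every gene but MCM7, and red triangles lie right of blue ones for 19 of 26 genes.

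Polymerase genes repeated the pattern. POLA1, the catalytic subunit of polymerase alpha, had 124 and 269.7 CPM in PC9 and 92.8 and 314 CPM in PC9R. PRIM1, the catalytic primase subunit, had 62.2 and 141 CPM in PC9 and 37.2 and 161 CPM in PC9R. POLE, the catalytic subunit of the leading-strand polymerase epsilon, had 317 and 202 CPM in PC9 and 179.5 and 240.2 CPM in PC9R. In all 3 genes PC9R was below PC9 in the first libraries and above it in the second, with log2 ratios from −0.82 to −0.42 and from 0.19 to 0.25. Of the 3309 exon bases of PRIM1, 139 overlap NACA and 362 overlap an unnamed coding gene, both on its own strand. HSD17B6 overlaps 132 on the opposite strand. Part of the PRIM1 counts could therefore come from reads that belong to another gene. POLD1, the catalytic subunit of polymerase delta, was counted at 2 to 23 reads and its interval included 1 in both pairs. Of the 4934 exon bases of POLD1, 426 overlap an unnamed coding gene on its own strand.

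Of the clamp and its loaders, 4 genes were tested, and the CPM of each was lower in PC9R in both pairs, with none called. PCNA, RFC3, RFC4 and RFC5 made up 4 of the 7 genes of the list with that order (37.4% of all genes tested have it), the others being MCM3, RRM2 and TYMS. RFC3 had 42.3 and 153 CPM in PC9 and 15.2 and 126 CPM in PC9R. The RFC3 ratio was 0.36 (0.325 to 0.398) in the first libraries and 0.826 (0.778 to 0.877) in the second. RFC4 had 19.4 and 13.5 CPM in PC9 and 8.14 and 11.4 CPM in PC9R, the PC9R values being the lower 2 of the 4. RFC5 had 1.22 and 3.07 CPM in PC9 and 0.541 and 2.20 CPM in PC9R. PCNA, the sliding clamp, had 4.61 and 0.934 CPM in PC9 and 4.16 and 0.832 CPM in PC9R, a difference inside the counting interval in both pairs. All 4 genes have several accessions. The 2 accessions of PCNA went opposite ways, so its order rests on their sum. In 1 of them the counts were 34 and 2 in PC9 and 61 and 5 in PC9R. The other had 113 and 12 counts in PC9 and 85 and 9 in PC9R. Fitted log2 fold changes were −0.46 (SE 0.98) for RFC3, −0.76 (SE 0.60) for RFC4, −0.66 (SE 0.88) for RFC5 and −0.15 (SE 0.97) for PCNA, each with an adjusted p of 0.999 in edgeR. Leaving out 1 library turned the sign for 3 of them. RFC3 came to 0.73 and RFC5 to 0.12 without the second PC9 library, and to 0.38 and 0.06 without the first PC9R library. PCNA came to 1.42 without the first PC9 library and to 0.55 without the second PC9R library.

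FEN1, the flap endonuclease of lagging-strand maturation, and LIG1, the ligase that seals the fragments, both turned between pairs. FEN1 had 254 and 224 CPM in PC9 and 136 and 258 CPM in PC9R. LIG1 had 297 and 148 CPM in PC9 and 182 and 178 CPM in PC9R. For FEN1 the 2 PC9R libraries were the lowest and the highest of the 4, while for LIG1 both PC9R values lay between those of PC9. UNG, the glycosylase that removes uracil from DNA, had 45.2 and 12.3 CPM in PC9 and 30.7 and 21.4 CPM in PC9R, from 2 accessions. In the first libraries 1 accession had 1041 counts in PC9 and 623 in PC9R, and the other 399 and 456. The lower first value of PC9R thus came from 1 accession alone. In the second libraries both were higher in PC9R, with 142 and 273 counts and with 42 and 87.

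The 3 genes of nucleotide supply differed among themselves. RRM1, the large subunit of ribonucleotide reductase, had 309 and 558 CPM in PC9 and 283 and 1058 CPM in PC9R, nearly level in the first libraries (ratio 0.914, 0.889 to 0.94) and 1.89-fold higher in the second (1.85 to 1.95). RRM2, its S-phase small subunit, had 4.80 and 2.00 CPM in PC9 and 1.08 and 1.61 CPM in PC9R. These RRM2 values rest on 27 to 153 counts, all from 1 of its 2 accessions, and the other was at 0 in every library. The RRM2 values of PC9R were the lower 2 of the 4, with log2 ratios of −1.74 and −0.25. Its fitted log2 fold change was the largest in size of the tested list, at −1.36 (SE 0.73, adjusted p = 0.844, edgeR). With the library number in the model it was −1.35 (SE 0.47, adjusted p = 0.0756, edgeR). Leaving out 1 library moved it from −0.59 (without the first PC9 library) to −1.87 (without the second PC9 library). TYMS, thymidylate synthase, had 131 and 124 CPM in PC9 and 46.4 and 98.7 CPM in PC9R, and both PC9R values lay below both PC9 values.

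TYMS, on chromosome 18 (GRCh37, chr18:657653-673578, plus strand), was singled out after its values were seen. Its ratio was 0.354 (0.334 to 0.375) in the first libraries and 0.795 (0.744 to 0.85) in the second. The fitted log2 fold change was −0.81 (SE 0.59, adjusted p = 0.999, edgeR), and −0.92 (SE 0.29, adjusted p = 0.0564) with the library number in the model, with adjusted p between 0.0504 and 1 over all alternatives run. Without the library number it was −0.37 when the first PC9R library was left out and −1.47 when the second was. Of the 2421 exon bases of TYMS, 967 overlap ENOSF1 and 193 overlap TYMSOS on the opposite strand, so reads of these genes cannot be told apart without strand. Both PC9R libraries lay below both PC9 libraries in 4 of 26 genes, MCM3, RRM2, TYMS and RFC4, against 14.9% of all genes tested, and both lay above in 1 of 26, MCM7 (16.9%).

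E2F1 and E2F2, transcriptional activators of the S-phase genes, were lower in PC9R in the first libraries and higher in the second. E2F1 had 146.5 and 102 CPM in PC9 and 131 and 194 CPM in PC9R, with a small difference in the first libraries (ratio 0.895, 0.859 to 0.932) and a larger one in the second (1.9, 1.79 to 2.02). E2F2 had 40.1 and 32.8 CPM in PC9 and 24.8 and 44.2 CPM in PC9R, log2 ratios of −0.68 and 0.43. Genes of the list with and without the E2F letters had similar median values, which was not tested. The 10 tested genes with a match had median log2 ratios of −0.56 and 0.34 in the 2 pairs and a median shift of 1.03, and the 16 without a match had −0.73, 0.21 and 1.08. Of all 204 tested coding genes with a match, the medians were −0.19 and 0.05 and the median shift was 0.19, against a shift of 0.01 in the 10800 coding genes without one.

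Other genes of the pathway, a list of 57 with 51 tested, were read for the same values. Of these, 41 were lower in PC9R in the first libraries (51.4% of all genes tested) and 33 were higher in the second (50.5%). Both held for 26 (14%) and the reverse for 3 (12.1%). In both pairs 15 were lower in PC9R (37.4%) and 7 were higher (36.6%). The summed CPM of the 51 genes was 4319 and 4866 in PC9 and 3072 and 6079 in PC9R. Their median shift was 0.87 (all genes 0.01). CCNA2, the S-phase cyclin, had 161.5 and 349.8 CPM in PC9 and 142 and 688 CPM in PC9R. CCNE2, a cyclin of the entry into S phase, had 33.0 and 99.8 CPM in PC9 and 31.4 and 192 CPM in PC9R. Thymidine kinase TK1 had 438.5 and 173 CPM in PC9 and 311 and 295 CPM in PC9R. In each of these 3 genes, picked after their values were seen, the second pair had the higher value in PC9R and the first pair the lower. CCNE1 did not turn, with 30.0 and 39.0 CPM in PC9 and 33.1 and 88.8 CPM in PC9R.

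With edgeR, 0 of these 51 genes were called (0 at an unadjusted p under 0.05), and 3 were called when the library number was in the model, 1 higher and 2 lower in PC9R (11.2% and 9.57% of all genes tested were). RPA3, the small subunit of the single-strand binding protein RPA, had 61.1 and 84.4 CPM in PC9 and 97.0 and 209 CPM in PC9R, with a log2 fold change of 0.99 (SE 0.22, adjusted p = 0.018, edgeR with the library number) and of 1.07 (adjusted p = 0.876) without it. POLE4, an accessory subunit of polymerase epsilon, had 94.1 and 118 CPM in PC9 and 32.9 and 59.0 CPM in PC9R, with −1.26 (SE 0.22, adjusted p = 0.00668) with the library number and −1.21 (adjusted p = 0.78) without it in edgeR. TFDP1, the dimer partner of E2F factors, had 56.6 and 37.6 CPM in PC9 and 21.2 and 25.3 CPM in PC9R from 2 accessions, with −1.005 (SE 0.26, adjusted p = 0.0299) with the library number and −1.02 (adjusted p = 0.88) without it in edgeR. Without the library number, leaving out 1 library moved RPA3 from 0.40 (without the second PC9R library) to 1.53 (without the first PC9R library). POLE4 moved from −0.84 (without the first PC9R library) to −1.71 (without the second PC9R library). TFDP1 moved from −0.71 (without the first PC9 library) to −1.31 (without the second PC9 library). Over all alternatives run the adjusted p reached 1 for each.

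First and second libraries also differed by base composition within each line. Over the 12055 tested genes with a GC value, in 4 near-equal groups from the lowest to the highest transcript GC content, the median log2 change from the first to the second library was 0.91, 0.38, −0.30 and −1.02 in PC9. It was 0.76, 0.33, −0.27 and −0.97 in PC9R. Across the 26 replication genes, GC content and the change from first to second library correlated with Pearson r = −0.61 and Spearman rho = −0.69 in PC9, and −0.55 and −0.65 in PC9R. These are descriptions over genes of the same libraries, and genes are not independent replicates. The log2 ratio of PC9R to PC9 moved far less with GC content: the medians of the 4 GC groups lay between −0.07 and 0.01 in the first libraries and between −0.12 and 0.09 in the second. The shift of the replication genes had medians of 0.89, 0.99, 1.09 and 1.08 from the lowest to the highest GC group, on 2, 13, 6 and 5 genes.

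**Figure D3:**
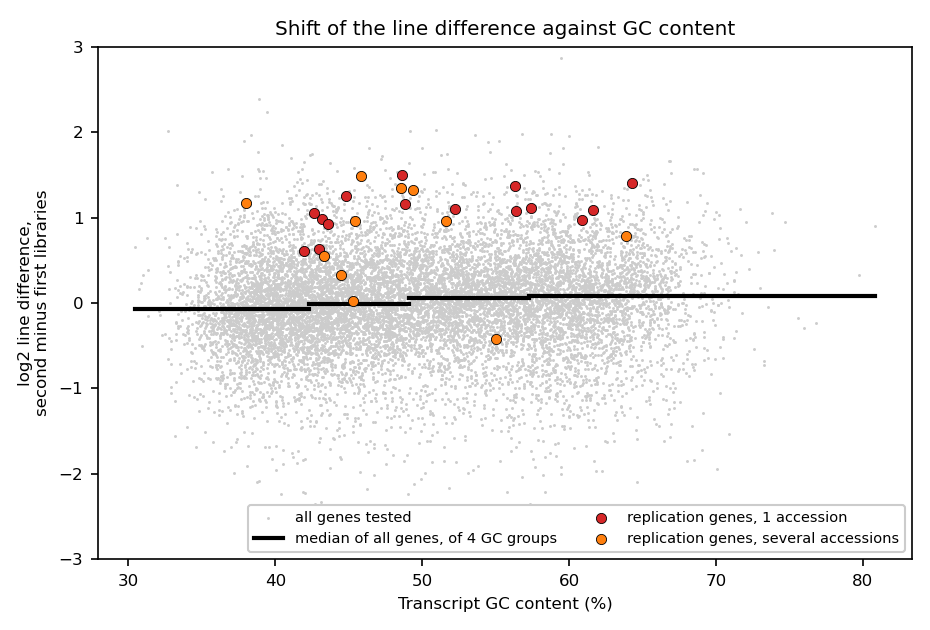
The shift of the PC9R to PC9 log2 ratio from the first to the second libraries (vertical axis) against transcript GC content in percent (horizontal axis), for all genes with a GC value (grey; 6 of 12055 lie outside the axis), with medians of the 4 GC groups as black lines and the 26 replication genes in red and orange. The replication genes lie above the black lines over the whole GC range except MCM7 at −0.42, with PCNA at 0.03.

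All 31 genes carried a deposited H3K4me2 peak within 1 kb of a TSS in both lines, and 19 of 31 a DHS peak in each line. There was 1 library per line and mark, so these are descriptions of lists with no test. Of coding genes tested for expression, 94.6% had an H3K4me2 peak in PC9 and 95.3% in PC9R, and 49.1% and 57.5% had a DHS peak. Both lines had a DHS peak at 14 of 31 promoters (45.2%, 38.5% of those coding genes), counted without asking whether the peaks overlap. At MCM3, RRM2 and UNG the peaks of PC9 and PC9R did not overlap. DHS was called in PC9 alone at POLA1, POLD1, PRIM1, RFC3 and FEN1 (16.1%, 10.6% of those coding genes) and in PC9R alone at MCM2, MCM4, CDC45, RRM1 and E2F1 (16.1%, 19%). MCM5, MCM10, GINS2, TYMS, E2F2, CDT1 and POLE had no DHS peak in either line (22.6%, 31.9%). The lists differ in length, with 19648 DHS peaks in PC9 and 59600 in PC9R. In the higher-scored part of each list, its upper 50 percent by the authors' score, 17 of the 31 genes had a DHS peak in PC9 and 9 in PC9R. Of all coding genes, a wider set than those tested for expression, 25% and 30.5% had a peak at this cut. Over the full lists, 34% and 45.6% of all coding genes had one.

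PCNA had DHS peaks over its main promoter in both lines. The peak at chr20:5100126-5100885 ranked above 94.5% of PC9 peaks, and the peak over the same promoter in PC9R, chr20:5100093-5100910, above 99.4% of its list. FEN1 had a peak in PC9 alone, at chr11:61560147-61560336, above 94.8% of that list. RFC3 had 2 peaks in PC9, above 75.9% and 47.3% of the list, and none in PC9R. In RRM1 the PC9R peak covered the start site at a rank above 39.8% of the list, and E2F1 had its PC9R peak 734 bases after the start site, above 46.3%. Ranks from lists of such different lengths show no change between lines, and none of these differences in peak calls has a replicate.

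**Figure D4:**
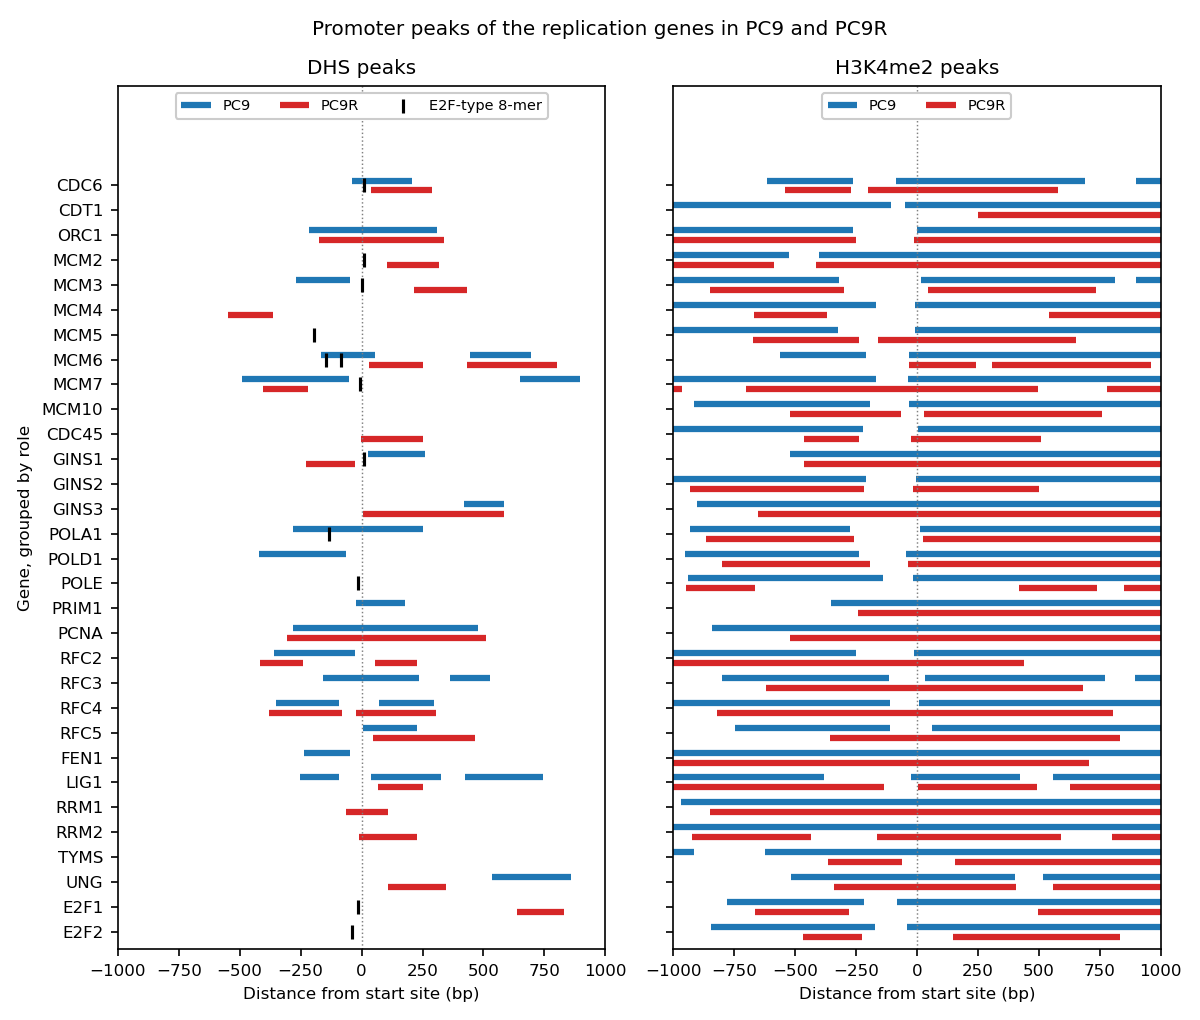
Deposited DHS peaks (left) and H3K4me2 peaks (right) around the main start site of each of the 31 genes, in bp from the TSS, with PC9 in blue and PC9R in red and E2F-type 8-mers as black ticks; peaks counted at other start sites of a gene lie outside the window. H3K4me2 peaks lie within 1 kb of the start site of every gene in both lines, and the DHS peaks of PC9 cover the ticks of MCM6, CDC6 and POLA1 while no PC9R peak covers one.

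The E2F-type letters lay inside a DHS peak in PC9 at both MCM6 sites, at CDC6 and at POLA1, and in PC9R at none of the 12 sites. The same was not counted for matches in other coding promoters, so a difference between lines cannot be read from it. The start site base itself lay inside a DHS peak in 22.6% of the 31 genes in PC9 and 19.4% in PC9R. Of coding genes tested for expression, 18.7% and 17.8% had it covered. At MCM6 the PC9 peak was chr2:136633957-136634179, above only 2.95% of its list by score, and the nearest PC9R peak, chr2:136633760-136633982, lay downstream. At CDC6 the PC9 peak was chr17:38444093-38444336, above 2.57%, and the PC9R peak, chr17:38444170-38444421, began after the letters and ranked above 87% of its own list. The POLA1 peak, chrX:24711754-24712289, was above 76.8% of the PC9 list. The 250 bases before the TSS of MCM6 and POLA1, whose letters were covered in PC9, and of E2F1, whose letters were covered in neither line, are given below for comparison, 5′ to 3′ on the strand of the gene, from GRCh37, with the E2F-type letters in capitals.
MCM6 (chr2:136634014-136634263, minus strand): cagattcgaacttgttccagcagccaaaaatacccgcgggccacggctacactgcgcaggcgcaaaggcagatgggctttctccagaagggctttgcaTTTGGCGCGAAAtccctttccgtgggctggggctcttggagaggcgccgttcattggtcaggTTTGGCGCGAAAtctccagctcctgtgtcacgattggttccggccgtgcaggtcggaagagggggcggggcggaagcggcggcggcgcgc
POLA1 (chrX:24711785-24712034, plus strand): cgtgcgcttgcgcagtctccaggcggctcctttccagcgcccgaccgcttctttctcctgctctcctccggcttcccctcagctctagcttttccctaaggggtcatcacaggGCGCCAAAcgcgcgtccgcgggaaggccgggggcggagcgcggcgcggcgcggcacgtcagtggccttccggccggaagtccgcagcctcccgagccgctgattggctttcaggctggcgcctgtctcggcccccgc
E2F1 (chr20:32274192-32274441, minus strand): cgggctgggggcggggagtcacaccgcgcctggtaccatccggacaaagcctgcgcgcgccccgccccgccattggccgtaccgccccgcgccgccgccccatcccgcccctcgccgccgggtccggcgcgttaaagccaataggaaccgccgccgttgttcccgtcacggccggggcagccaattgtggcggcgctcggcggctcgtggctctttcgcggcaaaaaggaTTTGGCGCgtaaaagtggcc

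These upstream stretches are rich in G and C, with 62.8% in MCM6, 70.8% in POLA1 and 72.4% in E2F1, and hold 24, 31 and 38 CG pairs. Absence of a peak over the letters says only that none was called there in that library.

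H3K4me2 peaks covered fewer bases around most of these promoters in PC9R than in PC9, and so they did around most promoters of coding genes. Of the 2001 bases centred on the main TSS, a median of 1757 were covered in PC9 and 1250 in PC9R, and 29 of 31 genes had less covered in PC9R (93.5%, 90.4% of coding genes tested for expression with a peak in both lines). Those coding genes had medians of 1696 and 1225 covered bases. ORC1 and LIG1 were the exceptions, chosen after their values were seen, with 1741 and 1766 bases in ORC1 and 1512 and 1733 in LIG1, in PC9 and PC9R. The least covered in PC9R were CDT1 (752 bases, 1943 in PC9), POLE (755, 1819 in PC9), MCM4 (760, 1842 in PC9) and CDC45 (761, 1777 in PC9). The start site base itself lay inside an H3K4me2 peak in 25 of 31 genes in PC9 (80.6%) and in 21 in PC9R (67.7%), against 57.5% and 42.1% of coding genes tested for expression. Median peak width over the whole lists was 546 bases in PC9 and 395 in PC9R, and the part of these widths in the lower coverage was not tested.

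A start site of a coding gene on the opposite strand lay within 1 kb for 7 of 31 genes (22.6%, 10% of coding genes). These pairs were MCM4 with PRKDC, MCM7 with AP4M1, CDC45 with UFD1, ORC1 with PRPF38A, POLE with PXMP2, FEN1 with TMEM258 and LIG1 with ZSWIM9. At ORC1 the partner start was 179 bases away, and the promoter peak calls of these 7 genes cannot be assigned to one gene of the pair. Both marks were called at ORC1 in both lines although the gene was listed at 0 counts, with DHS peaks ranked above 63.2% and 97.1% of their lists.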

How the data were processed

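RNA, DHS and H3K4me2 libraries were assigned to PC9 or PC9R from their titles. The authors deposited raw counts for each RefSeq accession. Peaks were deposited separately for each library, each with a score of unstated scale, which served only to rank peaks inside one list. The submitters' processing notes name MACS2, TopHat, HTSeq, DESeq and hg19 without version or role. The assignment of reads shared between accessions and the use of strand were not given in the sources used here.

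Counts of 42811 accessions were summed per gene (41556 matched a RefSeq symbol; the others were kept as features of their own). Line differences were tested two-sided with edgeR 4.0.16 (TMM, filterByExpr, quasi-likelihood F test, no block) in R 4.3.3, on 12660 genes, with Benjamini-Hochberg adjustment over all of them, after the script was tested on simulated data. Each standard error is the fitted log2 fold change over the square root of its F. CPM is TMM-normalised, and ratios within a pair use CPM plus 0.5 on the log2 scale, which understates changes of low genes. Genes and start sites came from GENCODE 44 lifted to GRCh37, sequences from the GRCh37 genome (samtools 1.23.1), and a promoter peak overlaps 1 kb either side of the start site of any coding transcript. The labels tie the libraries of a pair by number alone. Over all genes tested, however, the change from first to second library correlated between lines with Pearson r 0.819. Alternatives were DESeq2 1.42.0, limma-voom 3.58.1, other scalings and filters, the library number with and without a GC correction, 1 accession per gene and leaving out each library. Genes were to be given in full if called or if their log2 ratio was at least 0.5 in size with 1 sign in both pairs, which no gene of the list met, so all are given by role. The members and lists were chosen with earlier results of these data known.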

Additional observations from a re-analysis of the deposited data

How the results depend on the processing

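Under every alternative run, 0 of the replication genes tested were called, with at most 6 at an unadjusted p under 0.05 (the replicate block, which puts the library number in the model, with a GC correction), against 36.3% of all genes in that fit. Calls over all genes, 32 in the edgeR fit, were 0 with upper quartile scaling (919 at an unadjusted p under 0.05) and 0 with the stricter filter of 5 CPM in 2 libraries (446), 440 without a filter, 381 with DESeq2, 73 with limma-voom, 2631 with the replicate block, 2481 with that and a GC correction, and 83 to 254 with 1 library left out. Of the other replication genes, 3 were called with the replicate block and 3 with the GC correction added, and 0 otherwise. The pairing was not given by the labels, and the block raised the calls over all genes from 32 to 2631. The median log2 fold change of the list ranged from −0.82 (without the second PC9R library) to 0.084 (without the first) when 1 library was left out, and from −0.29 to −0.11 under the other settings. Leaving out 1 library gave PCNA −1.75 to 1.42 (0.55 without the second PC9R library), RFC3 −2.69 to 0.73 (0.38 without the first PC9R library) and RFC5 −1.98 to 0.12 (0.06 without the first PC9R library); the cause was not tested. Of the 18 other tested genes, the sign of the fold change turned in 5 with the replicate block, 6 with limma-voom and 3 to 9 without 1 library. The count of genes lower in the first and higher in the second libraries was 18, and 17 with CPM by total counts; this count and its settings were added after seeing the data. That scaling moved the median of all genes to 0.10 in both pairs and that of the list to −0.57 and 0.34. In the higher-scored part of the DHS list of PC9R, 9 of the 31 genes had a peak in place of 19 (30.5% of all coding genes in place of 45.6%); in all other promoter settings 16 to 31 did. With 2 libraries a line, 5 of 31 genes under the count filter and several accessions in 16, small differences were not detectable. Larger ones also went uncalled in edgeR. RRM2 was 2.56-fold lower in PC9R (adjusted p = 0.844, edgeR) and MCM7 1.95-fold higher (adjusted p = 0.992, edgeR), both on low counts. That 0 genes were called therefore does not show that the lines were equal.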
